A study of Mus musculus with 18 samples.

Results

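The genes described here encode 4 kinds of liver enzyme that act on drugs, steroids, bilirubin and lipids: carboxylesterases (CES), flavin-containing monooxygenases (FMO), sulfotransferases (SULT) and UDP-glycosyltransferases (UGT). They were taken by symbol from the families Ces1 to Ces5, Fmo1 to Fmo5, Sult1 to Sult5, Ugt1a, Ugt2a, Ugt2b and Ugt3a. Pseudogenes, predicted genes and Sult1e1 were left out, and a gene needed at least 100 counts summed over all livers. Of 60 matching symbols among 24394 in the table, 35 met that minimum: 12 of 18 CES, 5 of 5 FMO, 6 of 17 SULT, 2 of 8 UGT1A and 10 of 12 UGT2 and UGT3 genes. Ugt3a1 was just inside it with 108 counts and Sult2a7 just outside it with 96. Of the 25 symbols outside it, 13 had 0 counts in every liver, which allows at most 3 counts among 136255323, or 0.022 CPM on library totals. Among them Ugt1a2, Ugt1a7c and Ugt1a10 share their annotated last exon with other Ugt1a genes, and Ugt2a1 and Ugt2a2 with each other. Reads in a shared exon could have been dropped or counted elsewhere, so 0 counts sets no such limit for these genes. Sharing of 3′ sequence was read only for the 35 genes. For the other symbols at 0 the limit assumes that their reads were counted under their own symbol.

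The study measured RNA in 18 mouse livers, 6 from each of 3 groups: control mice labelled WT, WT mice bearing a pancreatic ductal adenocarcinoma (PDAC), and PDAC-bearing mice of genotype Alb-Cre+/+ STAT3f/f, called Stat3-deleted here. Cre recombinase is driven by the albumin promoter, active in hepatocytes, and deletes the floxed stretch of Stat3, a transcription factor activated by interleukin 6 family cytokines. The labels name the PDAC line PDA.69, derived from KPC mice, for every liver including the controls, and they state neither where or when tumours were implanted nor the animals' sex and ages. Stat3-deleted livers without a tumour are not among the groups.

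CES enzymes cleave esters and amides, and FMO enzymes oxidise nitrogen and sulfur atoms, both in the endoplasmic reticulum. UGT1A and UGT2 enzymes, also in that compartment, attach glucuronic acid from UDP-glucuronic acid, and cytosolic SULT enzymes attach sulfate from the donor PAPS. Both additions make the products soluble enough for export into bile or urine. Several of these genes are known in mouse liver for levels that differ between the sexes or between zones of the lobule.

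In the 3′ tag libraries used here each transcript gives reads from its end, so counts were not scaled to transcript length, and levels of different genes are compared as tags. Levels are CPM, counts divided by library size and brought to a common total, with library sizes scaled by the trimmed mean of M-values (TMM). The total count of a control liver was 5212265 to 7159148. It was 6168658 to 8850200 for tumour-bearing WT and 7222882 to 9545442 for Stat3-deleted ones. Stat3 had group medians of 110 CPM (control), 215 CPM (tumour-bearing WT) and 116 CPM (Stat3-deleted). The labels do not give the deleted exons, and a 3′ tag outside the deleted part does not check the deletion. Nothing states that each liver came from a separate animal, so p-values measure the spread between these samples. All Stat3-deleted livers carry label numbers below those of every WT liver, so this run of numbers and the genotype cannot be told apart. The WT livers form a lower (replicates 1 to 3) and a higher run (replicates 4 to 6). In whole liver, fewer cells of a type and less RNA per cell cannot be told apart.

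A pair of livers stood apart in female-biased transcripts. Control replicate 2 had 253 summed CPM of 9 female-biased hepatocyte genes, against 5.99 to 11.1 in the other control livers, and 937 summed CPM of 9 male-biased genes, the lowest of the controls. Tumour-bearing WT replicate 6 had 30.9 summed CPM of the female-biased genes, against 4.48 to 10.7 in the others of its group, and the lowest TMM factor of all livers, 0.75. Of its 30.9 CPM, 25.9 came from Cyp17a1 alone. Its male-biased genes summed to 2104 CPM, inside the 1352 to 4902 CPM of the others of its group. The 6 Stat3-deleted livers had 17.3 to 67.7 summed CPM of the female-biased genes, above all WT livers other than the pair. Counts of genes past the threshold are therefore also given without the pair, a choice made after seeing the data.

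The enzymes together took 1.07% of the counts in the median control liver, 0.765% in the median tumour-bearing WT liver and 1.01% in the median Stat3-deleted liver. These are shares of raw library totals. On that scale the median log2 fold change of all genes tested was also negative, -0.19, in tumour-bearing WT against control livers. Ces1c (2187 CPM over all livers) and Ces3a (1780 CPM) gave 42.3% of the summed CPM of the enzymes, and the 10 most abundant genes gave 79.8%. A mean of at least 10 CPM was reached by 26 of the 35 genes and a mean of at least 100 CPM by 19. Low counts kept 3 genes out of the tests, so 32 of the 35 were tested among 11218 genes.

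In the plot of summed CPM by family, CES genes had a median of 5488 CPM in control, 4829 in tumour-bearing WT livers and 6485 in Stat3-deleted livers. The summed UGT2 and UGT3 genes had medians of 3012, 1850 and 2361 CPM in the same order. The ranges of control livers (2297 to 3143 CPM) and tumour-bearing WT livers (1251 to 2689 CPM) overlapped for these UGT genes, as they did for every family. For SULT genes the medians were 732, 524 and 697 CPM, and for FMO genes 564, 473 and 717 CPM. The UGT1A sum was small and lowest in Stat3-deleted livers, with medians of 9.69, 6.77 and 3.14 CPM. The family sums were not tested.

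**Figure D1:**
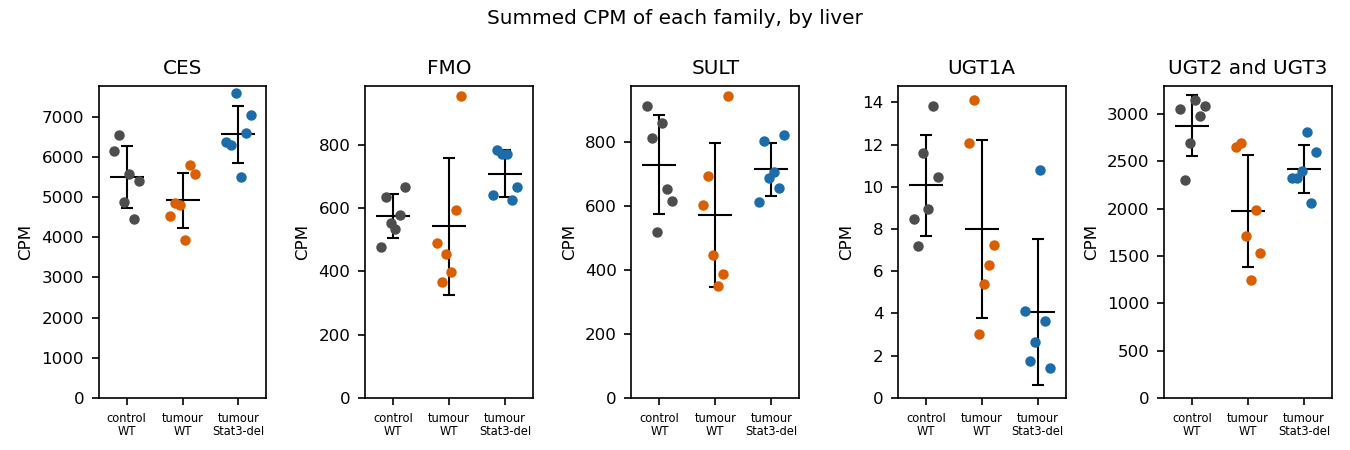
Summed CPM of each family (vertical axes from 0, on separate scales) in the 18 livers, with points as livers in replicate order and black bars as mean and SD of 6. The tumour-bearing WT livers have the lowest median in each family but UGT1A, where the Stat3-deleted livers are lowest at 3.14 CPM.

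The comparison of tumour-bearing WT with control WT livers asks how liver RNA differs in a mouse that bears a tumour. Ces2a, Ugt2b37 and Ugt2b38 fell and 0 of the enzymes rose, by edgeR's quasi-likelihood test with Benjamini-Hochberg adjustment over all 11218 genes at 0.05, the test used throughout. The 3 of 32 that fell stand beside 0.490% of all genes tested, and the 0 that rose beside 1.76%. Of the 32 genes, 27 had a negative log2 fold change, the median was -0.33, and 10 had an unadjusted p under 0.05. Over all genes 49.4% were negative, the median was 0.0038 and 1816 of 11218 had an unadjusted p under 0.05. With library totals in place of TMM the median of all genes shifted to -0.19 and that of the 32 to -0.51. DESeq2 put 5 of the 32 past the threshold, all lower, and without control replicate 2 and tumour-bearing WT replicate 6 the number was 2. It was 5 without tumour-bearing WT replicate 1 or 2 and 6 without replicate 5. In a fit on the WT groups alone, without the Stat3-deleted livers, it was 2, and 0 when the run of label numbers was added to that fit as a block. Within the lower run it was 0 and within the higher run 1.

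The comparison of Stat3-deleted with tumour-bearing WT livers asks what hepatocyte Stat3 changes when a tumour is present. Ces2a, Sult5a1, Ces3a and Ces1e were higher in the Stat3-deleted livers and 0 of the enzymes were lower. The 4 of 32 stand beside 2.89% of all genes tested that were higher, and the 0 beside 3.23% that were lower. Of the 32 genes, 27 had a positive log2 fold change, the median was 0.35 against -0.03 over all genes, and 11 had an unadjusted p under 0.05. Over all genes 45.9% were positive and 2181 of 11218 had an unadjusted p under 0.05. Without control replicate 2 and tumour-bearing WT replicate 6 the number past the threshold was 8, all higher. It was 7 without tumour-bearing WT replicate 6 alone and 6 without its replicate 5. It was 6 without Stat3-deleted replicate 4, of which 2 were lower, and 2 without tumour-bearing WT replicate 3 or 4. limma voom put 8 past it, 7 higher and 1 lower.

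The comparison of Stat3-deleted tumour-bearing with control WT livers asks which levels still differ from tumour-free liver. Ugt2b37 and Ugt2b38 were lower and 0 of the enzymes were higher. The 2 of 32 stand beside 2.66% of all genes tested that were lower, and the 0 beside 2.19% that were higher. The signs were mixed, with 19 positive and 13 negative log2 fold changes and a median of 0.04, and 9 had an unadjusted p under 0.05. Over all genes 49.1% were positive, the median was -0.0087 and 2334 of 11218 had an unadjusted p under 0.05. With library totals the median of the 32 was -0.09 and that of all genes -0.13. The number past the threshold was 6 without control replicate 2 and tumour-bearing WT replicate 6, of which 3 were higher. It was 4 when Stat3-deleted replicate 4 or tumour-bearing WT replicate 6 was left out, and 1 when any of Stat3-deleted replicates 2, 3 and 5 or control replicates 5 and 6 was left out. The 3 comparisons share livers pair by pair, so their values are given side by side and no overlap is drawn from them.

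**Figure D2:**
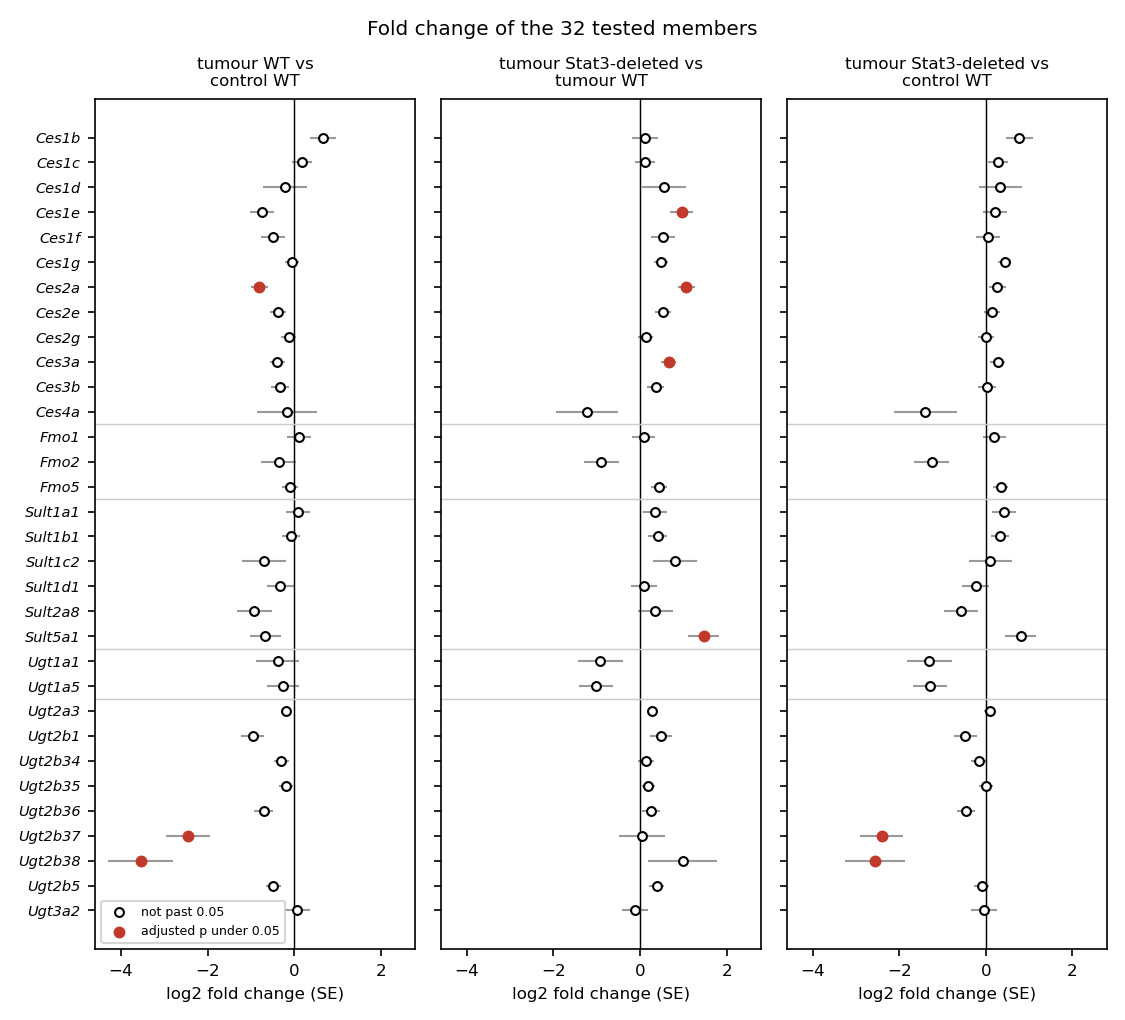
Log2 fold change with its SE (horizontal axes) of the 32 tested enzyme genes in the 3 comparisons, grouped by family and separated by grey lines. Filled red points mark adjusted p under 0.05: 3 lower genes on the left, 4 higher genes in the middle and 2 lower genes on the right, with 27 points left of 0 in the first and 27 right of 0 in the second.

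Among the carboxylesterases, 1 of 12 tested genes fell in tumour-bearing WT against control livers and 3 of 12 were higher in Stat3-deleted than in tumour-bearing WT livers. In the first comparison 10 of the 12 log2 fold changes were negative with a median of -0.27, and in the second 11 were positive with a median of 0.51. Against control livers 0 of 12 passed the test in Stat3-deleted livers, with a median of 0.24. An unadjusted p under 0.05 was reached by 2 of the 12, beside 2334 of 11218 over all genes. All 12 lie on mouse chromosome 8, where the Ces1 genes form 1 cluster and the Ces2, Ces3 and Ces4 genes another.

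Ces2a encodes a carboxylesterase of the CES2 type, which prefers esters with small acyl groups, and lies at chr8:104734003-104741634 in mm10. Its lowest, median and highest levels were 224, 264 and 372 CPM in control livers. They were 84.0, 176 and 222 CPM in tumour-bearing WT livers and 268, 333 and 405 CPM in Stat3-deleted livers. Every tumour-bearing WT liver was thus below every control and every Stat3-deleted liver, while the control and Stat3-deleted ranges overlapped. Ces2a fell by 0.81 on the log2 scale in tumour-bearing WT livers (SE 0.20, adjusted p = 0.0335 by edgeR). It was 2.10-fold higher in Stat3-deleted than in tumour-bearing WT livers (log2 fold change 1.07, SE 0.20, adjusted p = 0.00194 by edgeR). It was the only 1 of the 32 genes whose control and tumour-bearing WT ranges did not overlap with the latter lower, beside 0.464% of all genes tested. The second call kept its side of the threshold without any 1 liver, but the first did not. Its edgeR adjusted p ran from 0.0521 to 0.0993 without control replicate 1, 2, 4, 5 or 6 or tumour-bearing WT replicate 3, 4 or 6. That first call was also lost in the fit on the WT groups alone, and without control replicate 2 and tumour-bearing WT replicate 6 together.

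Ces3a (chr8:105048601-105058413) encodes a carboxylesterase of the CES3 type and was the second most abundant of the enzymes. It ranged from 1329 over a median of 1801 to 2150 CPM in control, from 1099 over 1220 to 2213 in tumour-bearing WT livers and from 1905 over 2071 to 2691 CPM in Stat3-deleted livers. Tumour-bearing WT replicate 5 was the high liver of its group, and the next one reached 1353 CPM, below every Stat3-deleted liver. Ces3a was 1.59-fold higher in Stat3-deleted than in tumour-bearing WT livers (log2 fold change 0.67, SE 0.17, edgeR adjusted p = 0.0201). The edgeR adjusted p was 0.0516 and 0.0546 when tumour-bearing WT replicate 3 or 4 was left out, and 0.058 without Stat3-deleted replicate 5. Against control, the tumour-bearing WT value was -0.39 (SE 0.17, edgeR adjusted p = 0.259). Of the 50-base words in the last 300 bases of Ces3a transcripts, 19.4% also occur in its neighbour Ces3b, and 24.7% of those of Ces3b occur elsewhere, so reads could be split between the pair. Ces3b, of the same type, gave 0.36 (SE 0.20, edgeR adjusted p = 0.345) in Stat3-deleted against tumour-bearing WT livers.

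Ces1e (chr8:93201218-93229619), a CES1-type esterase of the endoplasmic reticulum, ranged from 146 over a median of 239 to 298 CPM in control livers. It ranged from 69.2 over 131 to 276 CPM in tumour-bearing WT livers and from 202 over 263 to 383 CPM in Stat3-deleted livers. Tumour-bearing WT replicate 5 was again the high liver, and the next one reached 172 CPM, below every Stat3-deleted liver. The gene was 1.94-fold higher in Stat3-deleted livers (log2 fold change 0.96, SE 0.27, edgeR adjusted p = 0.0366). That call was not stable: the edgeR adjusted p ran from 0.0536 to 0.0932 when any 1 of 6 livers was left out (Stat3-deleted replicates 1, 3 and 6 and tumour-bearing WT replicates 3, 4 and 6). It was 0.0533 with library totals and 0.0597 with only the compared groups in the fit. The Ces1e call was also lost with the replicate number as a block, and without control replicate 2 and tumour-bearing WT replicate 6 together.

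Ces1c (chr8:93099015-93131283), the secreted esterase of mouse plasma, was the most abundant of all 35 genes and passed no test. Its medians were 1798 CPM in control, 1992 in tumour-bearing WT livers and 2368 in Stat3-deleted livers, with control livers spread from 936 to 3381 CPM. The largest of its 3 log2 fold changes was 0.29 (SE 0.22, edgeR adjusted p = 0.495), for Stat3-deleted against control livers. Of the 50-base words at its 3′ end, 11.4% occur in Ces1b or a predicted gene. Ces4a was the only CES gene with a negative value in Stat3-deleted against tumour-bearing WT livers, -1.22 (SE 0.72, edgeR adjusted p = 0.37), at 54 to 123 summed counts a group.

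**Figure D3:**
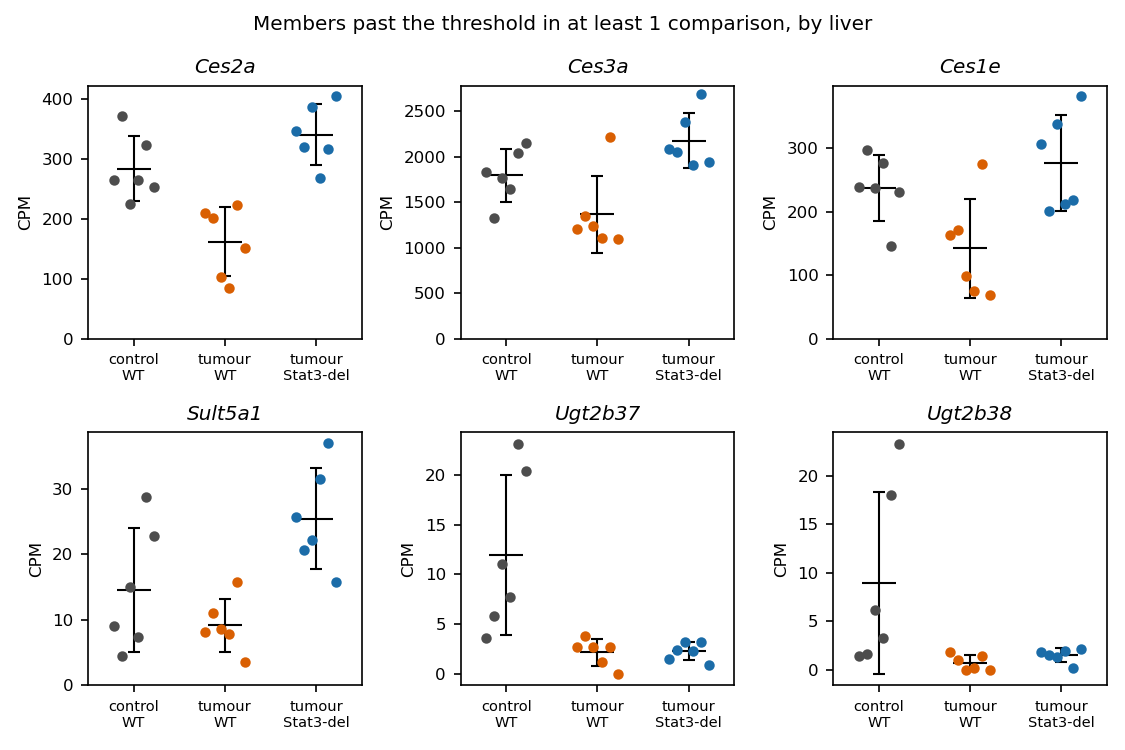
CPM (vertical axes from 0) of the 6 genes past the threshold in at least 1 comparison, with points as livers in replicate order and black bars as mean and SD of 6. Tumour-bearing WT livers lie below both other groups for Ces2a (84.0 to 222 CPM), and both tumour-bearing groups lie at or below 3.82 CPM for Ugt2b37.

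Of the FMO genes 3 of 5 were tested and 0 of 3 passed in any comparison. In the order above, 0, 2 and 1 genes had an unadjusted p under 0.05, beside 1816, 2181 and 2334 of all 11218 genes. Fmo5 (chr3:97628804-97655282) encodes an FMO that acts as a Baeyer-Villiger oxidase and made up most of the family's tags. Its lowest, median and highest levels were 421, 507 and 617 CPM in control, 319, 431 and 792 in tumour-bearing WT livers and 579, 656 and 726 CPM in Stat3-deleted livers. The high tumour-bearing WT liver was replicate 6. In Stat3-deleted against tumour-bearing WT livers the log2 fold change was 0.44 (SE 0.18, edgeR adjusted p = 0.158). Without tumour-bearing WT replicate 6 it was 0.64 (edgeR adjusted p = 0.00707).

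Fmo1 (chr1:162829561-162866610), which oxidises many drugs, reached 107 CPM in tumour-bearing WT replicate 6 against 22.4 to 37.4 in the other livers of that group. Control livers ranged from 32.9 to 50.9 CPM and Stat3-deleted livers from 36.5 to 59.0. The log2 fold change in Stat3-deleted against tumour-bearing WT livers was 0.09 (SE 0.27, edgeR adjusted p = 0.895), and 0.59 without replicate 6 (edgeR adjusted p = 0.0225). Tumour-bearing WT replicate 6 also held the highest level of Fmo2, 38.3 CPM.

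Fmo2 (chr1:162874317-162898726), the FMO best known from lung, was named after its values were seen. It ranged from 9.06 over a median of 15.9 to 23.2 CPM in control and from 4.82 over 6.81 to 8.05 CPM in Stat3-deleted livers. Its log2 fold change was -1.25 (SE 0.40, edgeR adjusted p = 0.0745), so it did not pass although the ranges did not overlap. Fmo2 and Ugt2b37 were the 2 of 32 genes with every Stat3-deleted liver below every control liver, beside 1.84% of all genes tested. Without tumour-bearing WT replicate 6, the edgeR adjusted p of Fmo2 was 0.00657, and DESeq2 gave 0.0273.

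**Figure D4:**
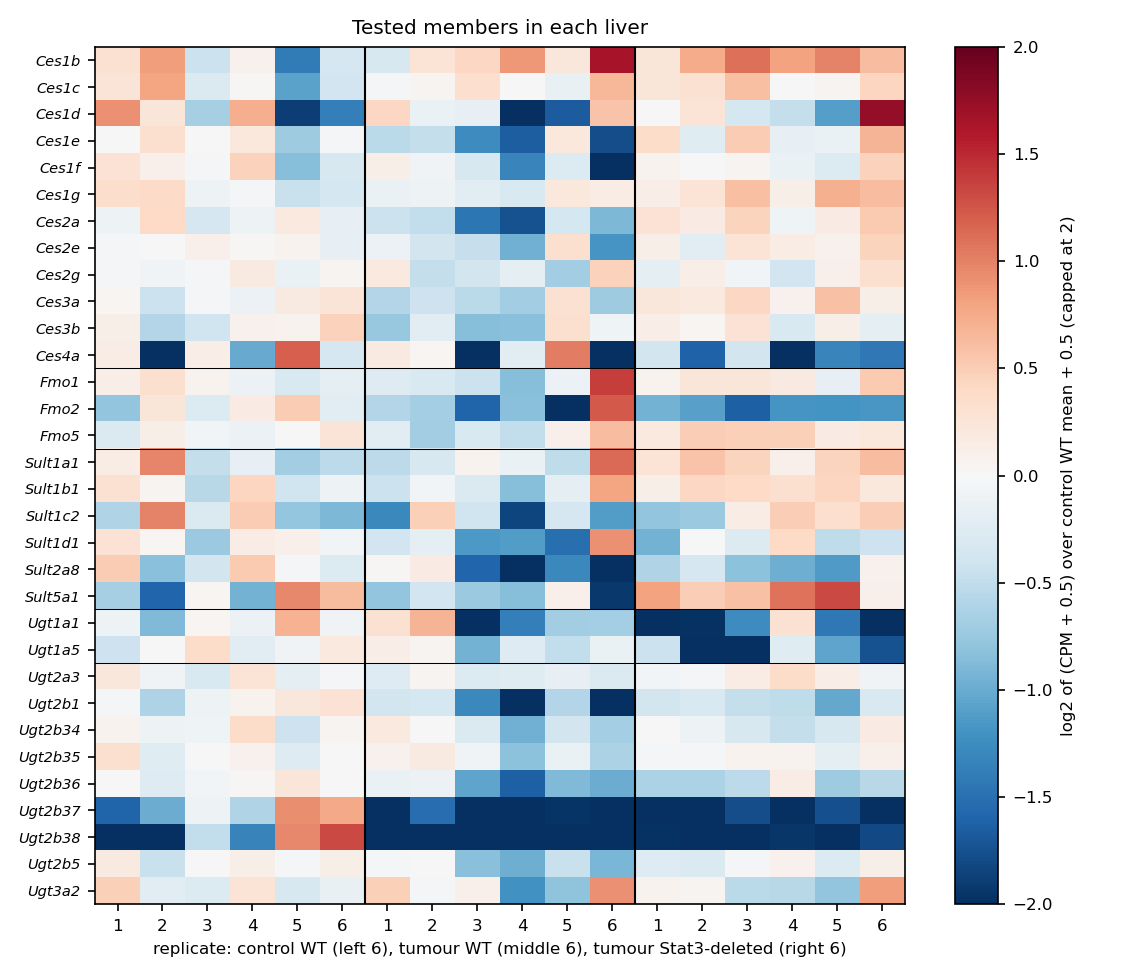
Log2 of CPM plus 0.5 over the control WT mean plus 0.5 (colour, capped at 2 in both directions) for the 32 tested genes (vertical axis, by family) in each of the 18 livers (horizontal axis, by group and replicate). Tumour-bearing WT replicate 6 stands out with high Fmo1 (107 CPM) and Fmo2 (38.3 CPM). Replicates 4 and 6 of that group are both low for Ugt2b1 (136.5 and 142 CPM) and Sult2a8 (35.7 and 38.3 CPM). Ugt2b37 and Ugt2b38 are dark blue across both tumour-bearing groups. Control replicates 1 and 2 are dark blue as well for Ugt2b38 (1.44 and 1.69 CPM), as is control replicate 1 for Ugt2b37 (3.60 CPM).

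Among the sulfotransferases, 0 of 6 passed the test in tumour-bearing WT against control livers and 1 of 6 was higher in Stat3-deleted than in tumour-bearing WT livers. The medians of the 6 log2 fold changes were -0.50 and 0.38 in these comparisons, and all 6 were positive in the second. Sult5a1 (chr8:123140192-123158315), a member of the family with little known of its substrates, had 4.51, 12 and 28.8 CPM as lowest, median and highest in control livers. It had 3.48, 8.37 and 15.8 CPM in tumour-bearing WT livers and 15.8, 24.0 and 37.0 CPM in Stat3-deleted livers. The Stat3-deleted livers lay above every tumour-bearing WT liver, by a narrow margin at the touching ends, 15.77 against 15.75 CPM. Sult5a1 was 2.77-fold higher in Stat3-deleted than in tumour-bearing WT livers (log2 fold change 1.47, SE 0.36, edgeR adjusted p = 0.0154), a call that no single left-out liver ended. With Ces2a it was 1 of the 2 of 32 genes whose Stat3-deleted livers all lay above the tumour-bearing WT livers, beside 1.40% of all genes tested. Against control livers the value was 0.81 (SE 0.35, edgeR adjusted p = 0.192).

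Sult1a1 (chr7:126672865-126676432), which sulfates phenols, had medians of 165 CPM in control, 174 in tumour-bearing WT livers and 279 in Stat3-deleted livers. Its highest WT livers were the pair that stood apart, control replicate 2 at 401 CPM and tumour-bearing WT replicate 6 at 446 CPM. The log2 fold change of Sult1a1 in Stat3-deleted against tumour-bearing WT livers was 0.34 (SE 0.27, edgeR adjusted p = 0.527). Without both livers it was 0.69 (edgeR adjusted p = 0.00841), and 0.73 against control livers (edgeR adjusted p = 0.00823). Of the 50-base words at the 3′ end of Sult1a1, 15.4% occur in a predicted gene, so its reads may be shared.

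Sult2a8 (chr7:14410686-14446769), a liver bile acid sulfotransferase, had medians of 234 CPM in control, 96.1 in tumour-bearing WT livers and 160 in Stat3-deleted livers. The tumour-bearing WT livers were widely spread, with replicates 1 and 2 at 264 and 293 CPM and the others at 35.7 to 106 CPM. The log2 fold change of Sult2a8 against control was -0.93 (SE 0.40, edgeR adjusted p = 0.252) and did not pass. In the higher run of label numbers the value of Sult2a8 was -2.23 (edgeR adjusted p = 0.0479), and in the lower run -0.17 (edgeR adjusted p = 0.969). Sult3a1, under the count minimum, had 40 of its 51 counts in tumour-bearing WT replicate 6.

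The UGT2 and UGT3 genes gave the largest decreases, in Ugt2b37 and Ugt2b38. UGT2 enzymes glucuronidate steroids, bile acids and drugs. In tumour-bearing WT against control livers 2 of 9 tested genes fell, 8 of 9 log2 fold changes were negative and the median was -0.48. An unadjusted p under 0.05 was reached by 5 of the 9, beside 1816 of 11218 over all genes. In Stat3-deleted against control livers the same 2 genes were lower and the median was -0.16. Between the tumour-bearing groups 0 of 9 passed, with a median of 0.25. An unadjusted p under 0.05 was reached by 2 of the 9, beside 2181 of 11218 over all genes.

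The 2 genes that fell, Ugt2b37 (chr5:87240493-87254804, minus strand) and Ugt2b38 (chr5:87409942-87424203, minus strand), are UGT2B paralogs in 1 cluster. Their sequences from RefSeq on GRCm38.p6 are printed because they were the most alike of all pairs compared within a family: of 264 aligned columns of the 250 bases before the start, 225 (85.2%) were identical. Both runs read 5′ to 3′ on the minus strand, at chr5:87254789-87255038 for Ugt2b37 and chr5:87424204-87424453 for Ugt2b38. Capitals mark the 25 bases in each that differ from, or lie opposite a gap in, the other.
Ugt2b37: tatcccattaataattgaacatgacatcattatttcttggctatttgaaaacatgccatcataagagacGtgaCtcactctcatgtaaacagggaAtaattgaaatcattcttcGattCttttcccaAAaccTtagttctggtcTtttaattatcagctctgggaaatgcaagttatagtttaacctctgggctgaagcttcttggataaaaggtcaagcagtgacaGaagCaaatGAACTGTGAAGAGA
Ugt2b38: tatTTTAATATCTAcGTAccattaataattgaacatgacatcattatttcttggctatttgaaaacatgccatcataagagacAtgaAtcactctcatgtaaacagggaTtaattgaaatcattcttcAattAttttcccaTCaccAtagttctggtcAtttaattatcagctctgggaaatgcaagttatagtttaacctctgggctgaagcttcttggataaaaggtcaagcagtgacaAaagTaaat
The differences at the ends come from starts annotated a few bases apart. Ugt2b5, which did not pass any test, was 81.5% identical to Ugt2b38 over the same stretch.

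Ugt2b37 ranged from 3.60 over a median of 9.39 to 23.2 CPM in control livers. It ranged from 0 over 2.64 to 3.82 CPM in tumour-bearing WT livers and from 0.905 over 2.34 to 3.19 CPM in Stat3-deleted livers. Only 1 tumour-bearing liver, at 3.82 CPM, exceeded the lowest control liver, and the 0 count in tumour-bearing WT replicate 6 allows up to 0.454 CPM (3 counts). Ugt2b37 fell by 2.45 on the log2 scale in tumour-bearing WT (SE 0.50, edgeR adjusted p = 0.00781) and by 2.40 in Stat3-deleted against control livers (SE 0.50, edgeR adjusted p = 0.0087). Between the tumour-bearing groups the value was 0.05 (SE 0.52, edgeR adjusted p = 0.976). No single left-out liver ended either call, but limma voom gave Ugt2b37 an adjusted p of 0.0757 in tumour-bearing WT livers.

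Ugt2b38 ranged from 1.44 over a median of 4.74 to 23.2 CPM in control livers. It ranged from 0 over 0.658 to 1.86 CPM in tumour-bearing WT livers and from 0.22 over 1.71 to 2.20 CPM in Stat3-deleted livers. The ranges overlapped, since 2 control livers were below 2 CPM, and tumour-bearing WT replicates 3 and 6 had 0 counts, which allows up to 0.361 and 0.454 CPM. Ugt2b38 fell by 3.55 on the log2 scale in tumour-bearing WT (SE 0.75, edgeR adjusted p = 0.0102), from 380 to 33 summed counts. It fell by 2.56 in Stat3-deleted against control livers (SE 0.69, edgeR adjusted p = 0.033). The edgeR adjusted p of the latter ran from 0.0544 to 0.105 when any 1 of 6 livers was left out (Stat3-deleted replicates 1, 2, 3 and 5 and control replicates 5 and 6). With limma voom neither decrease of Ugt2b38 passed (adjusted p = 0.126 for the first comparison and 0.118 for the latter).

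The control livers with the highest Ugt2b37 and Ugt2b38 were replicates 5 and 6. Ugt2b37 was at 23.2 and 20.5 CPM and Ugt2b38 at 17.95 and 23.2 CPM there, against at most 11.1 and 6.22 CPM in the other controls. The same livers had the highest summed male-biased genes, 7481 and 6819 CPM, against 937 to 4367 in the other controls. Without control replicate 2 and tumour-bearing WT replicate 6 the decrease in tumour-bearing WT livers was 2.35 for Ugt2b37 (log2 fold change -2.35, edgeR adjusted p = 0.00314) and 3.53 for Ugt2b38 (log2 fold change -3.53, edgeR adjusted p = 0.00912). The part of male-biased expression in these decreases was not tested. In the higher label-number run, which holds both livers, the log2 fold change of Ugt2b37 in tumour-bearing WT livers was -3.68 (edgeR adjusted p = 0.0618) and that of Ugt2b38 -4.65 (edgeR adjusted p = 0.0543). In the lower run the values were -1.15 for Ugt2b37 (edgeR adjusted p = 0.509) and -1.70 for Ugt2b38 (edgeR adjusted p = 0.711).

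Ugt2b36 (chr5:87065927-87092555) and Ugt2b5 (chr5:87124960-87140318), steroid and drug UGTs and the most abundant of this family, were lower on average but did not pass. Ugt2b36 had medians of 813 CPM in control, 425 in tumour-bearing WT livers and 539 in Stat3-deleted livers, and tumour-bearing WT gave -0.71 against control (SE 0.21, edgeR adjusted p = 0.0848). All 6 tumour-bearing WT livers lay below the control mean of 814 CPM, and the ranges overlapped. Ugt2b5 had medians of 552, 344 and 484 CPM, and tumour-bearing WT gave -0.48 against control (SE 0.17, edgeR adjusted p = 0.158). Ugt2b1, named after its values were seen, gave -0.96 (SE 0.27, edgeR adjusted p = 0.058), with medians of 629 CPM in control and 334 in tumour-bearing WT livers. DESeq2 put Ugt2b1 (adjusted p = 0.0119) and Ugt2b36 (adjusted p = 0.0286) past the threshold. Without tumour-bearing WT replicate 1 the edgeR adjusted p was 0.0241 for Ugt2b1 and 0.0255 for Ugt2b36.

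The UGT1A genes, of which Ugt1a1 encodes the bilirubin-conjugating enzyme, were counted at very low levels. They splice separate first exons to shared later exons, and the annotated last exon of all 8 ends in the same stretch that begins at position 88218127 of chromosome 1. All 251 words of 50 bases at the 3′ end of Ugt1a1 occur in other Ugt1a genes, so a 3′ tag cannot be assigned to 1 of them, and both values below are uncertain as levels of the named gene. Counts under Ugt1a1 had medians of 5.52 CPM in control, 3.47 in tumour-bearing WT livers and 1.5 in Stat3-deleted livers. Counts under Ugt1a5 had medians of 4.10, 3.60 and 1.33 CPM. Neither passed in any comparison. Stat3-deleted against control livers gave -1.30 for Ugt1a1 (SE 0.52, edgeR adjusted p = 0.148) and -1.29 for Ugt1a5 (SE 0.39, edgeR adjusted p = 0.058). Stat3-deleted replicate 4 was the high liver of its group for both, at 7.35 and 3.45 CPM, and without it these values were -2.09 (edgeR adjusted p = 0.0137) and -1.62 (edgeR adjusted p = 0.0183).

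Windows from 250 bases before to 50 after the RefSeq start were on hand for 29 of the 35 genes (33 windows), and 5 motifs were searched on both strands. The STAT motif TTCNNNGAA occurred in 1 window, that of Fmo2, against 8.30% of all 32851 windows. The HNF1 motif occurred in the windows of Ugt1a1 and Sult1d1, against 0.399% of all windows. The xenobiotic response element TNGCGTG occurred in those of Sult1d1 and Ugt1a5 (5.07% of all), the HNF4 motif CAAAGTNCA in that of Sult1b1 (1.41% of all) and the antioxidant response element TGACNNNGC in 0 (12.4% of all). A match describes letters in the window and is no evidence of binding.

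Genes that supply or handle the products of these enzymes were read from lists. Of 4 genes of glucuronic acid supply and hydrolysis, only Ugp2, which makes UDP-glucose, passed: it was 1.83-fold higher in Stat3-deleted than in tumour-bearing WT livers (log2 fold change 0.87, SE 0.20, edgeR adjusted p = 0.00894), with medians of 200.4 and 102 CPM. Of 9 genes of sulfate donor supply and hydrolysis, only Papss2, which makes PAPS, passed. Papss2 ranged from 89.1 over a median of 123 to 174 CPM in control, from 64.6 over 76.6 to 93.8 in tumour-bearing WT livers and from 96.8 over 127 to 146 CPM in Stat3-deleted livers, so the tumour-bearing groups did not overlap. It fell by 0.64 in tumour-bearing WT against control livers (SE 0.16, edgeR adjusted p = 0.027) and was higher by 0.66 in Stat3-deleted livers (SE 0.16, edgeR adjusted p = 0.0107). The edgeR adjusted p of the fall of Papss2 was 0.0564 to 0.0803 without control replicate 2 or 6 or tumour-bearing WT replicate 3 or 4. For Papss2 it was 0.0519 with the replicate number as a block, 0.0637 in the fit on the WT groups alone and 0.0716 when that fit was blocked by label-number run.

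Of 7 other ester and epoxide hydrolases, only Ephx1, the microsomal epoxide hydrolase, passed. Its medians were 235 CPM in control, 156 in tumour-bearing WT livers and 370 in Stat3-deleted livers, a 2.40-fold difference between the latter groups (log2 fold change 1.26, SE 0.20, edgeR adjusted p = 0.000326). Ephx1 was also higher than in control livers by 0.69 (SE 0.20, edgeR adjusted p = 0.0455), a call that leaving out any 1 of 13 livers ended, with edgeR adjusted p of 0.0511 to 0.113. Of 11 other conjugating enzymes, Nnmt, the nicotinamide N-methyltransferase, rose by 1.32 in tumour-bearing WT livers (SE 0.30, edgeR adjusted p = 0.0182) and was lower by 1.83 in Stat3-deleted livers (edgeR log2 fold change -1.83, SE 0.31, adjusted p = 0.000514). Without control replicate 1 or 4 the edgeR adjusted p of the rise of Nnmt was 0.0526 or 0.0528. Against control livers, Stat3-deleted livers had higher Tpmt, a thiopurine methyltransferase (1.06, SE 0.22, edgeR adjusted p = 0.008). Against tumour-bearing WT livers Tpmt (0.73) and the methyltransferase gene Inmt (1.20) were higher; for Tpmt leaving out any 1 of 12 livers ended that call, with edgeR adjusted p of 0.0508 to 0.125. That of Inmt was 0.0515 without tumour-bearing WT replicate 3. Of 7 efflux pumps only Abcc6 passed, with 0.59 in Stat3-deleted against tumour-bearing WT livers (SE 0.17, edgeR adjusted p = 0.0367), and 0.0646 to 0.0934 without any 1 of 7 tumour-bearing livers.

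Of 20 tested regulators of these enzymes, 0 passed in tumour-bearing WT against control livers. In Stat3-deleted against tumour-bearing WT livers 4 were higher and 2 lower. Nr1i2, which encodes the pregnane X receptor, a drug-sensing activator of Ces, Sult and Ugt genes, had medians of 68.2 CPM in tumour-bearing WT livers and 129.9 in Stat3-deleted livers (log2 fold change 0.81, SE 0.16, edgeR adjusted p = 0.00324). Nr0b2, the corepressor SHP, was higher by 1.18 (SE 0.23, edgeR adjusted p = 0.0029), and Ppara (0.63) was higher too. Esr1, the oestrogen receptor, gave -1.25 (SE 0.28, edgeR adjusted p = 0.00777), and the glucocorticoid receptor gene Nr3c1 -0.62. The call of Ppara was lost without Stat3-deleted replicate 4, and that of Nr3c1 with library totals and without any 1 of 4 livers. Against control livers 4 regulators were higher (among them Nr1i2, Nr0b2 and Foxa3) and 2 lower (Nr3c1 and Nfe2l2). Of these calls that of Nr1i2 was lost without any 1 of 10 livers, with library totals (edgeR adjusted p = 0.109) and with no filter on low counts (0.0503). Those of Nr0b2 and Foxa3 were each lost without any 1 of 3 livers, and those of Nr3c1 and Nfe2l2 without 0.

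Markers of other cells and of zones were read in the same comparisons. Of 5 hepatocyte markers 0 passed in tumour-bearing WT against control livers, and their summed level was 52730 to 82090 CPM in control, 57362 to 122060 in tumour-bearing WT livers and 91663 to 106970 CPM in Stat3-deleted livers. The hepatocyte marker Ttr was higher in Stat3-deleted livers, by 0.68 against tumour-bearing WT (edgeR adjusted p = 0.0154, and 0.052 in a fit on these groups alone) and by 0.66 against control livers (edgeR adjusted p = 0.0271, lost without any 1 of 4 livers). All 3 tested of 6 neutrophil markers rose in tumour-bearing WT livers and were lower in Stat3-deleted livers, with summed levels of 20.4 to 50.3, 67.7 to 337 and 34.5 to 102 CPM. Of 8 pericentral genes Glul rose by 0.65 in tumour-bearing WT livers (edgeR adjusted p = 0.0368, and 0.0502 to 0.109 without any 1 of 10 livers). Another of them, Cyp1a2, was higher by 0.91 in Stat3-deleted than in tumour-bearing WT livers (SE 0.23, edgeR adjusted p = 0.0161), a call lost under 0 of the alternatives. Of 5 periportal genes Cyp2f2 fell by 0.81 in tumour-bearing WT livers (edgeR adjusted p = 0.0237) and was higher by 0.73 in Stat3-deleted livers (edgeR adjusted p = 0.0201). The edgeR adjusted p of the fall of Cyp2f2 was 0.0548 to 0.073 without control replicate 5 or 6 or tumour-bearing WT replicate 3 or 4, and that of the rise 0.0585 without tumour-bearing WT replicate 3. In the fit on the WT groups alone the edgeR adjusted p was 0.126 for Glul and 0.0751 for Cyp2f2, and 0.0948 and 0.0786 when blocked by label-number run. Glul also missed the threshold with library totals (0.0934) and limma voom (0.0547). Of 9 male-biased genes 0 passed between the WT groups, with a median log2 fold change of -0.97. In Stat3-deleted against control livers 1 of the 9, C6, was 2.01-fold lower (edgeR adjusted p = 0.0393, and 0.053 to 0.0966 without any 1 of 9 livers). Of 3 tested female-biased genes Cyp2a4 fell between the WT groups (log2 fold change -5.17, SE 1.34, edgeR adjusted p = 0.0417), with 976 of its 1007 control counts in control replicate 2, and the call was lost without that liver (edgeR adjusted p = 0.816) and without any 1 of 8 others. In tumour-bearing WT against control livers 1 of 6 Kupffer cell markers (Vsig4, 0.95, lost without any 1 of 5 livers) and 1 of 4 tested biliary markers (Sox9, 1.31) rose, and 0 of 6 endothelial, 0 of 6 stellate cell and 0 of 1 tested lymphocyte markers passed. In Stat3-deleted against tumour-bearing WT livers 2 biliary markers (Spp1 and Sox9) and 1 stellate cell marker (Hgf, lost without any 1 of 8 livers) were lower. In Stat3-deleted against control livers 2 Kupffer cell markers (Vsig4, 0.87, and Cd5l, 1.04) and 2 endothelial markers (Stab2, 0.70, and Clec4g, 0.69) were higher. These 4 calls were lost without any 1 of 6, 7, 6 and 3 livers, in that order. The 5 pancreatic acinar markers summed to 2.68 CPM at most. The part of cell makeup, zonation and sex-biased expression in the enzyme results was not tested.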

How the data were processed

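The deposited table holds raw counts of 3′ tags per gene symbol in 18 mouse livers, 1 column each. Per the labels, an RNeasy Mini kit gave the RNA and a Lexogen QuantSeq 3′ FWD kit the libraries. Per the submitters' processing notes, reads were aligned with STAR to mm10. The counter, its strand setting, the annotation and versions were each not given in the sources used here. Antisense or overlapping genes cannot be separated. Label numbers tied every column to its sample, with 0 columns unmatched. Of 24421 symbols, 27 had become dates and were left out (0.103 to 0.166% of counts).

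Counts were analysed with edgeR 4.0.16 (R 4.3.3), using TMM factors, filterByExpr (11218 genes), glmQLFit with 1 coefficient per group over all 18 livers (15 residual degrees of freedom, common biological coefficient of variation 0.281) and glmQLFTest for 3 two-sided contrasts. Benjamini-Hochberg adjustment ran over all genes tested, with a threshold of 0.05, and SE are those of the log2 fold change. Depth was 5212265 to 9545442 counts a liver, and limits from a count of 0 (3 counts) cover counting error only. Alternatives were DESeq2 1.42.0, limma 3.58.1 voom with quality weights, RLE factors, library totals, 2 other filters, only the compared groups, blocks for replicate number or label-number run, and each liver left out. Fits within each run of label numbers and without control replicate 2 and tumour-bearing WT replicate 6 together were added after seeing the data. The procedure was tested on data simulated with the dispersions of this fit. Those data held no differences by label-number run or sex-biased expression, so the test does not cover these.

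The genes and lists were chosen with earlier results of these data known. By rule the text names each enzyme gene past the threshold, the 2 most abundant per family, the genes beside the count minimum and up to 3 called genes per accessory list. Other genes were named after their values were seen. Results of some genes are not reported here. Positions came from the GENCODE annotation of GRCm38, the assembly of mm10, and 3′ sharing was read from its transcripts as words of 50 bases in the last 300 bases. Start windows came from RefSeq on GRCm38.p6 and were aligned with Biopython 1.88. Protein sequences were not used here. Python 3.11.15, pandas 2.3.3, numpy 2.4.6 and matplotlib 3.10.9 were used for summaries and plots.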

Additional observations from a re-analysis of the deposited data

Results flagged for a closer look

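Of the 35 genes 34 were checked in each group for 1 liver far from its other 5 (Dixon's gap ratio above its 95% critical value, on log2 of CPM plus 0.5). Of 102 groups 12 had such a liver, and chance alone gives about 1 in 20. Tumour-bearing WT replicate 6 was the high liver for Fmo1 at 107 CPM (next 37.4) and for Sult1a1 at 446 CPM (next 214). Control replicate 2 was low for Ugt2b5 at 389.6 CPM, where the next liver had 515 CPM. Among other control livers, replicate 5 was low for Ces1e at 146 CPM and replicate 3 low for Sult1d1 at 108 CPM.

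In tumour-bearing WT livers, replicate 5 was high for Ces3a at 2213 CPM and low for Fmo4 at 0.128 CPM, and replicate 2 was high for Ugt2a3 at 381 CPM. In Stat3-deleted livers, replicate 5 was low for Ugt2b1 at 306 CPM and for Ugt2b38 at 0.22 CPM. Replicate 4 was high for Ugt2b36 at 904 CPM (next 566), and replicate 3 was low for Fmo2 at 4.82 CPM.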

How the results depend on the processing

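The number of enzyme genes past the threshold was 3, 4 and 2 for tumour-bearing WT against control, Stat3-deleted against tumour-bearing WT, and Stat3-deleted against control livers. In that order, leaving out 1 liver gave 2 to 6, 2 to 7 and 1 to 4. DESeq2 gave 5 in the first and 4 in the third, limma voom 8 in the second and 5 in the third, and library totals 4 in the third. In the first, the fit on the WT groups alone gave 2, that fit blocked by label-number run 0, the lower run alone 0 and the higher run alone 1. Without control replicate 2 and tumour-bearing WT replicate 6 the second gave 8 and the third 6. The cause of these shifts was not tested, and the fits that leave livers out also hold fewer livers. With the replicate block the counts were 3, 3 and 1. Same-numbered livers correlated from -0.126 to 0.309 in their deviations from the group means and in at most 2 of 6 pairs above 0.1, so the numbers were not taken as pairs. In the same order, 1, 1 and 0 livers correlated best with their own number. Of the calls recomputed gene by gene, 0 changed sign under these alternatives. Among the enzymes, Ces2a and Sult5a1 between the tumour-bearing groups and Ugt2b37 in Stat3-deleted against control livers passed under all of them. Genes with under 10 CPM, such as Ugt2b38, are limited by depth.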
